A study of Homo sapiens with 6 samples.

Results

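The 48 genes described here encode ribosome biogenesis factors, nucleolar proteins that assemble ribosomes. They were taken as a list of gene symbols. The rule uses no measured value, but the list was drawn up with earlier results of these data known. All 48 were matched to a row among the 35716 genes of the count table. All 48 also passed the low-count filter, which left 15202 genes for testing. The RNA came from MIA PaCa-2, an established human line of pancreatic ductal adenocarcinoma cells with wild-type genotype per the labels. In 3 libraries the cells had been kept with 10 nM triptolide for 24 h, and in 3 libraries they were untreated, cultured for the same time in DMEM with fetal bovine serum per the series' design text. No vehicle is named for the untreated cells, and all libraries come from this 1 line. Triptolide is a plant diterpenoid that binds the XPB subunit of TFIIH, a general transcription factor of RNA polymerase II. The question set by the design is which mRNAs differ between treated and untreated cells.

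Ribosome assembly starts in the nucleolus, where RNA polymerase I transcribes a long precursor of the rRNAs. Small nucleolar ribonucleoproteins (snoRNPs) of the box C/D class guide methylation of this precursor, and those of the box H/ACA class guide conversion of uridine to pseudouridine. The UTP complexes, the U3 snoRNP and their partners fold and cleave the part that becomes the small subunit, and a separate set of factors matures the large subunit. Genes of this pathway are known as a group whose expression follows cell growth and the transcription factor MYC.

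The triptolide libraries held 16302961 to 23262713 counts and the untreated libraries 17566458 to 19600354. Whether replicates were grown as separate cultures is not stated in the labels. The p-values therefore rest on library-to-library spread alone, and this spread may be technical. The libraries differed in how gene levels varied with GC content. Over the 48 genes, the deviation of a gene's log2 CPM (its count scaled by library size) from its mean over the 6 libraries was compared with the GC content of its transcripts. Spearman's rho was 0.83 in triptolide replicate 1, -0.46 in triptolide replicate 2 and -0.22 in triptolide replicate 3, against -0.4, -0.52 and -0.03 in untreated replicates 1, 2 and 3. Against exon length it was 0.5 in triptolide replicate 3 and -0.46 in untreated replicate 3. Because a gene's mean includes all 6 libraries, a strong trend in 1 library pushes the others the opposite way. The values are thus not independent of each other. These are descriptions over genes of the same libraries, and over all genes with a GC value the rho with GC in triptolide replicate 1 was 0.64. Triptolide replicate 1 was the lowest triptolide library for 27 of the 48 genes and the highest for 15. Untreated replicate 3 was the highest untreated library for 31 and the lowest for 11. Over all genes, the chi-square per degree of freedom between the counts of 2 untreated libraries was 5.25 for replicates 1 and 2, and 43.98 and 32.24 for replicate 3 against each of them. Between triptolide libraries it was 71.27 for replicates 1 and 2, 43.69 for 1 and 3, and 30.6 for 2 and 3. Across the groups it ran from 31.73 (triptolide 3, untreated 1) to 85.91 (triptolide 1, untreated 3). Some pairs within a group thus differed more than some pairs across groups.

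**Figure D1:**
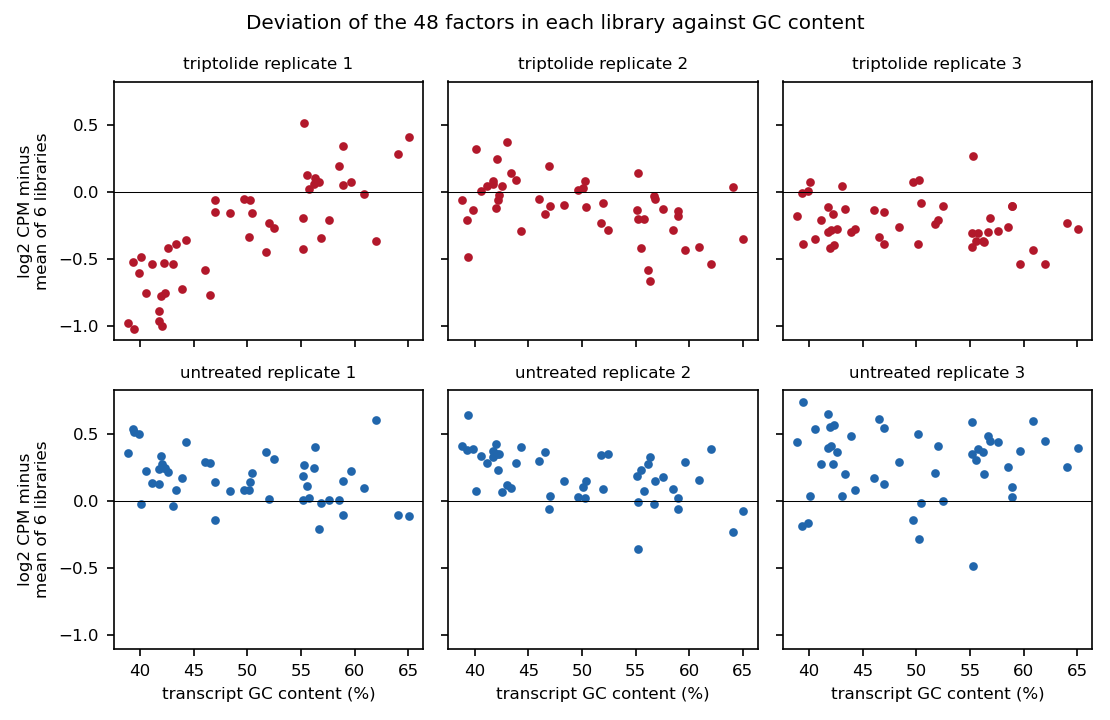
Deviation of the 48 factors in each library (y axis, log2 CPM minus the gene's mean over the 6 libraries) against the mean GC content of the gene's GENCODE 29 transcripts (x axis, percent), with 1 point per gene, triptolide libraries in the top row in red and untreated libraries in the bottom row in blue. In triptolide replicate 1 the genes of low GC content lie lowest (rho of 0.83).

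Markers of other cells differed between the groups as well. Of 37 listed placental trophoblast genes, 26 were tested and 22 were higher with triptolide, with 0 lower. Their summed level was 720.6 to 1121 CPM in the triptolide libraries and 141.8 to 154.2 CPM in the untreated libraries. Most of the untreated sum was TFAP2A, with 105.9 to 121.3 CPM untreated and 112.4 to 135.2 CPM with triptolide. CSH1 had 4.76 to 5.01 CPM untreated and 321.5 to 630.7 CPM with triptolide. None of them was at 0 counts over the triptolide libraries, and 8 of them (PSG2, PSG6, HSD3B1, ERVFRD-1, GCM1, INSL4, LGALS13 and PLAC1) were at 0 over the untreated libraries. Of 5 tested blood genes 4 were higher, at a sum of 12.75 to 24.77 CPM with triptolide and 3.1 to 4.09 CPM untreated, with LYZ at 0 counts over the triptolide libraries and HBG1, HBG2 and CD163 at 0 over the untreated libraries. Of 18 tested fibroblast and mesenchymal genes 10 were lower and 0 higher, at a sum of 1357 to 1644 CPM with triptolide and 1585 to 1914 CPM untreated. Most of this sum in both groups was COL5A2 and COL1A2, whose ranges overlapped between the groups. COL5A2 had 820.5 to 1024 CPM with triptolide and 701.7 to 939 CPM untreated, and COL1A2 268.8 to 375.3 CPM and 287.5 to 344.8 CPM. FAP and CDH2 were at 0 counts over the triptolide libraries. Of 5 tested markers of the line itself 2 fell. They were KRT18, with 436.7 to 539.2 CPM with triptolide and 733.5 to 1056 CPM untreated, and VIM, with 1073 to 1725 CPM with triptolide and 1810 to 2851 CPM untreated (edgeR adjusted p = 0.0123 and 0.04197). KRT8 was not called, with 1375 to 1870 CPM with triptolide and 1614 to 2271 CPM untreated. The epithelial genes EPCAM and CDH1 were near 0, with 3 and 16 counts over the triptolide libraries and 4 and 5 counts over the untreated libraries. The part of other cells' RNA in the results was not tested.

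Of the 48 factors, 10 fell with triptolide and 0 rose (edgeR quasi-likelihood test, adjusted p under 0.05 over all genes tested), and 38 were not called. The share called lower was 20.8% of the factors, beside 5.82% of all tested genes. The share called higher was 0 of 48, beside 10.0% of all tested genes. At an unadjusted p under 0.05, 29 factors were lower and 0 higher, beside 13.8% of all tested genes lower and 17.1% higher. DESeq2 called 17 factors lower, beside 7.39% of all tested genes, and limma-voom 12, beside 5.91%, both including all 10. Neither called a factor higher, beside 9.90% of all tested genes higher with DESeq2 and 9.76% with limma-voom. The falls ran from 1.52-fold to 2.36-fold, in UTP18, PPAN, UTP6, GAR1, NPM1, NOC3L, DCAF13, NOP16, WDR43 and NOP14. The median log2 fold change over the factors was -0.44, and over all tested genes it was -0.004. The estimate was below 0 for 43 of the 48 factors (89.6%) and for 50.3% of all tested genes. In 30 of the 48 (62.5%) every triptolide library lay below every untreated library, beside 16.9% of all tested genes. In 0 of the 48 every triptolide library lay above, beside 19.8% of all tested genes. All values are relative to the other RNA in the same library and cannot show whether cells held less mRNA in all. Fewer cells of a type and less RNA per cell cannot be told apart.

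**Figure D2:**
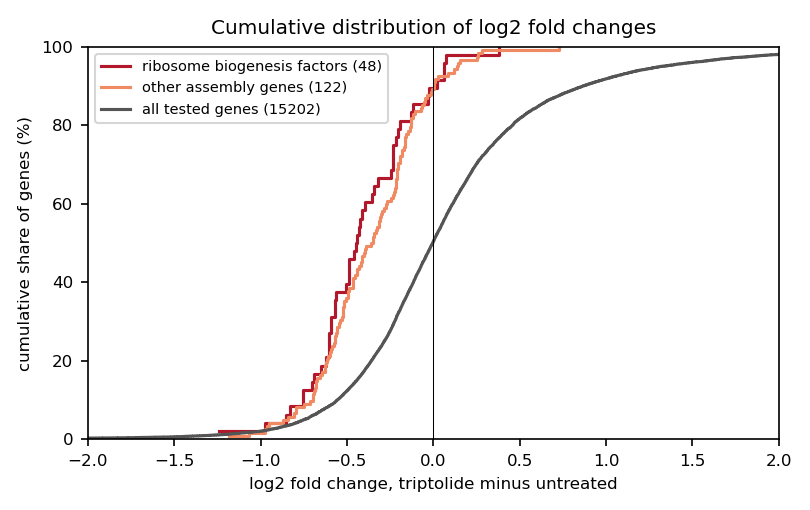
Cumulative share of genes (y axis, percent) by log2 fold change, triptolide minus untreated (x axis, whose ends leave out the most extreme genes), for the 48 ribosome biogenesis factors, 122 other ribosome assembly genes and all 15202 tested genes. The curve of the 48 factors lies to the left of that of all tested genes, with medians of -0.44 and -0.004.

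The number called depended on scale and on which libraries were kept. Ribosomal protein genes, used for 1 alternative scaling, were themselves lower on balance (80 of 84 below 0, median log2 fold change -0.23). The groups overlapped in 77 of the 84, and 3 were called lower, beside 5.82% of all tested genes. Their summed level was 84180, 82200 and 65180 CPM with triptolide, against 73210, 79990 and 112300 CPM untreated. These sums overlapped too, with untreated replicate 3 the highest. With scaling on these genes, the median over all genes moved to 0.17 and the median over the factors to -0.27. The distance between the 2 medians was then -0.44, as it was with TMM scaling. A change of scale moves all genes by about the same amount. This distance could therefore hardly differ and gives no support of its own. Only UTP18 was called under it (adjusted p = 0.0405), beside 0.842% of all genes called lower, and 90.2% of all calls were then higher in place of 63.3%. Library totals alone gave 7 factors lower, with 3.91% of all genes lower and 73.8% of all calls higher. Without untreated replicate 2 or without triptolide replicate 3, 4 factors were called lower, beside 2.56% and 2.96% of all genes. Without untreated replicate 1 the number was 6, beside 3.34% of all genes. With a GC offset per library, 25 factors were called lower and 0 higher, beside 12.1% of all genes lower. Without both triptolide replicate 1 and untreated replicate 3, a choice made after seeing the data, 21 were called lower and 0 higher, beside 11.8% of all genes lower, and the median over the factors was -0.31. The 10 factors named above were among those called in both of these fits.

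The GC content of the factors ran from 38.9% to 65.1%. The 24 factors of lower GC content had a median log2 fold change of -0.5 with 7 called lower, and the 24 of higher GC content had -0.38 with 3 called lower. With the GC offset the medians were -0.41 and -0.46, and without the 2 libraries named above they were -0.33 and -0.28. The median was below 0 on both sides in each fit. Medians and shares called of all genes in the same GC ranges are not given here. The part of GC content in the falls was not tested.

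**Figure D3:**
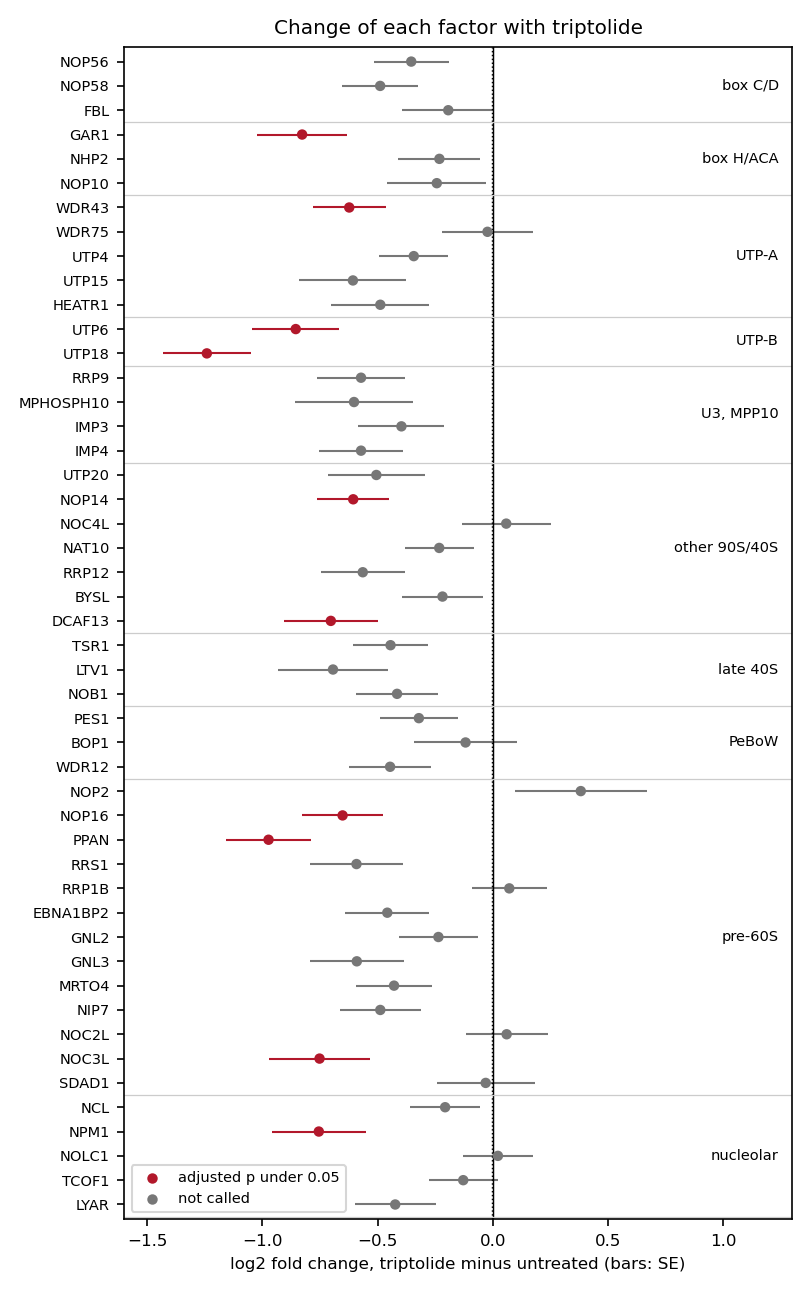
Log2 fold change of each of the 48 factors, triptolide minus untreated (x axis), with the standard error as a bar, grouped by role from top to bottom; red marks an adjusted p under 0.05, the solid line is 0 and the dotted line the median of all tested genes. Of the points, 43 lie below 0 and 10 are red.

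UTP18, PPAN, UTP6 and GAR1 kept their call in all 6 fits that left out 1 library, and in every other alternative except scaling on ribosomal protein genes, where UTP18 alone kept it and the other genes had adjusted p-values of 0.106 (PPAN), 0.171 (UTP6) and 0.21 (GAR1). The sequences before their gene starts are shown because these factors kept their call whichever library was left out. RefSeq windows for 39 of the 48 factors were searched, using the 250 bases before the gene start in GRCh38.p14, on both strands. The E-box CACGTG, the motif that MYC binds, was in the windows of 9 of the 39 factors (23.1%), beside 11.3% of 10765 tested genes with a window. It was in 1 of 9 called factors with a window and in 8 of 30 that were not called. The ETS motif CCGGAAG was in 14 of the 39 (35.9%), beside 18.9% of the tested genes, and in 5 of the 9 called. The GC box GGGCGG was in 28 (71.8%, beside 74.5%) and CCAAT in 20 (51.3%, beside 41.2%). A match is a description of letters, not a binding site. In the windows below, given 5′ to 3′ on the gene's strand, capitals mark an E-box or an ETS match on either strand, and no 2 of these matches overlap. The window of UTP18 (chr17:51260296-51260545, plus strand) holds an E-box that begins 89 bases before the gene start, and ETS matches that begin 177 and 63 bases before it. That of UTP6 (chr17:31901709-31901958, minus strand) holds neither. For GAR1 and PPAN the first of the 2 windows listed by RefSeq is shown. That of GAR1 (chr4:109815260-109815509, plus strand) holds an ETS match that begins 28 bases before the gene start, and that of PPAN (chr19:10105973-10106222, plus strand) holds neither. The other window of PPAN holds an ETS match, and PPAN counts among the 5 called factors with one.
UTP18: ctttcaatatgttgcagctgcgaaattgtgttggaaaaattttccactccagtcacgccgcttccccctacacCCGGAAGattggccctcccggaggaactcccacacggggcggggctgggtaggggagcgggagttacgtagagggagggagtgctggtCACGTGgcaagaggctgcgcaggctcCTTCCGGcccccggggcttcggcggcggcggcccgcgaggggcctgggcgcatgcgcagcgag
UTP6: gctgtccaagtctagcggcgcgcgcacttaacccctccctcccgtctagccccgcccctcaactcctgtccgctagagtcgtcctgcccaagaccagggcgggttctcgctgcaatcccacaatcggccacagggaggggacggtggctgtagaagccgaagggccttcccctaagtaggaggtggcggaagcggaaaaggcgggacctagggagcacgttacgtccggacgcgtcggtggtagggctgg
GAR1: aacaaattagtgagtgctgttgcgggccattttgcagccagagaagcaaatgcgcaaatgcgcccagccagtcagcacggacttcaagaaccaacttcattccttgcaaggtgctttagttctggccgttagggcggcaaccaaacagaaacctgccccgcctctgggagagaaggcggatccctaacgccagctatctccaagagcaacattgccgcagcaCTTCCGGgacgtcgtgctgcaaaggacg
PPAN: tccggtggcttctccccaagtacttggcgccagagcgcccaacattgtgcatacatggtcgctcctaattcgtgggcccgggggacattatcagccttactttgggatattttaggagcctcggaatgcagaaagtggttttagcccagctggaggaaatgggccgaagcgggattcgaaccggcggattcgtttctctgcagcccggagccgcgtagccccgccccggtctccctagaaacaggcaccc

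UTP-B is a scaffold complex of the early small-subunit precursor, and UTP6 and UTP18 are subunits of it. UTP18 (ENSG00000011260) had 20.2, 29.2 and 31.3 CPM in the triptolide libraries, against 58.4, 64.1 and 68.5 CPM in the untreated libraries. The groups did not overlap, and the highest triptolide value was well under the lowest untreated one. UTP18 fell 2.36-fold (log2 fold change -1.24 ± 0.19 SE, edgeR adjusted p = 0.00138), the largest fall among the 48. UTP6 (ENSG00000108651) had 23, 36.3 and 29.4 CPM with triptolide, against 49.9, 53.1 and 57.8 CPM untreated. It fell 1.81-fold (log2 fold change -0.86 ± 0.19 SE, edgeR adjusted p = 0.0101). The complex has 4 further subunits outside the 48. WDR3 averaged 65.2 ± 9.33 CPM with triptolide and 102.9 ± 18.7 CPM untreated (SD, n = 3 libraries each) and fell 1.58-fold (edgeR adjusted p = 0.0317). PWP2, TBL3 and WDR36 had log2 fold changes of -0.35, -0.13 and -0.45 and were not called (edgeR adjusted p = 0.194, 0.751 and 0.176). WDR3 was not called without triptolide replicates 1 or 2 or untreated replicates 1 or 2 (adjusted p = 0.0768, 0.0668, 0.0886 and 0.16). The same held under ribosomal protein scaling, library totals or a mean of at least 5 CPM (0.403, 0.0789 and 0.0834).

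**Figure D4:**
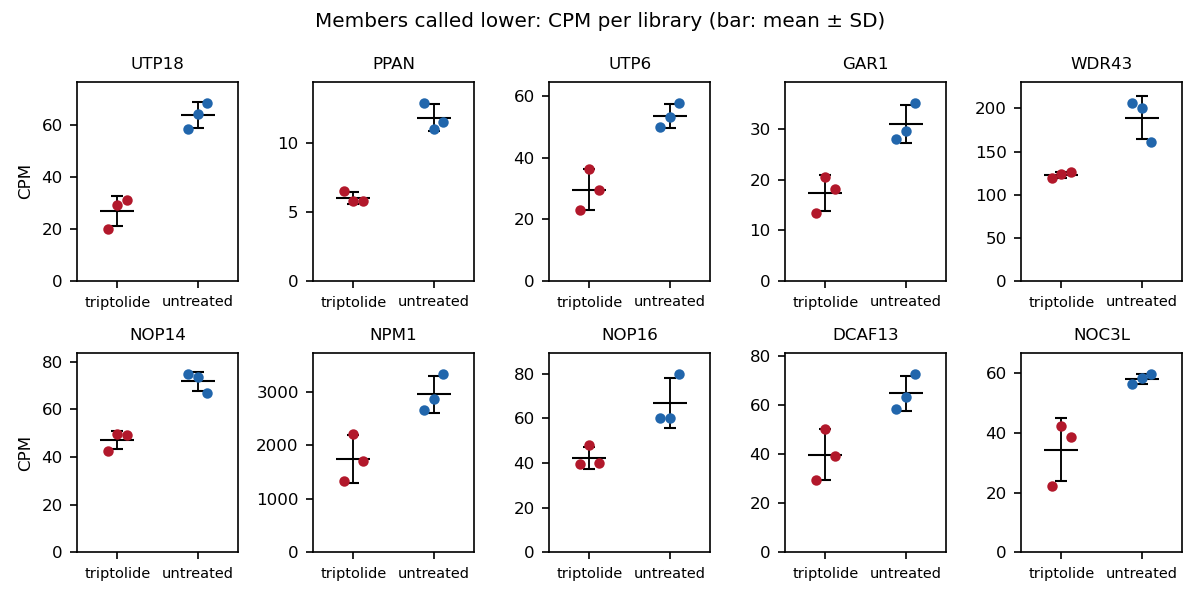
CPM (y axis, from 0) of the 10 factors called lower, 1 panel per gene in order of adjusted p, with the 3 triptolide libraries at the left in red and the 3 untreated libraries at the right in blue; horizontal marks and bars give mean ± SD. In each panel every triptolide library lies below every untreated library.

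UTP-A is the complex that meets the rRNA precursor first, and its subunits are also tied to RNA polymerase I transcription. WDR43 (ENSG00000163811), one of these subunits, had 118.9, 124.2 and 125.8 CPM with triptolide, against 206.4, 200.7 and 160.9 CPM untreated. It fell 1.54-fold (log2 fold change -0.62 ± 0.16 SE, edgeR adjusted p = 0.0199). The triptolide libraries lay close together and untreated replicate 3 was the lowest of its group. Of the other subunits on the list, UTP4, UTP15 and HEATR1 had log2 fold changes of -0.34, -0.61 and -0.49 and WDR75 -0.02. None was called by edgeR with TMM scaling and all 6 libraries. UTP4 was called with the GC offset (edgeR adjusted p = 0.0357). UTP15 was called with the replicate block, with no low-count filter and without triptolide replicate 2 (0.0409, 0.0296 and 0.0435). HEATR1 was called without untreated replicate 3, and without both it and triptolide replicate 1 (0.0497 and 0.0123). WDR75 was not called in any alternative. NOL11, a subunit outside the 48, had a log2 fold change of -0.49 (edgeR adjusted p = 0.0999). UTP15 showed the spread of triptolide replicate 1, with 19, 38.8 and 34.3 CPM with triptolide against 43.9, 48 and 48.8 CPM untreated. The call of WDR43 was lost without triptolide replicate 3 or untreated replicates 1 or 2 (adjusted p = 0.0711, 0.09 and 0.107), as it was under ribosomal protein scaling or a mean of at least 5 CPM (0.355 and 0.0561).

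The U3 snoRNP pairs with the precursor to set the first cleavages, and RRP9 is its specific WD-repeat protein. MPHOSPH10, IMP3 and IMP4 form the complex that joins U3 to the precursor. In all 4 genes every triptolide library lay below every untreated library, beside 16.9% of all tested genes. None was called, although 3 of the 4 were lower at an unadjusted p under 0.05, beside 13.8% of all tested genes. DESeq2 called RRP9 and IMP4, and limma-voom called IMP4. IMP4 (ENSG00000136718), the nearest to the threshold, had 133, 93.4 and 87.2 CPM with triptolide, against 147.4, 154.8 and 163.6 CPM untreated (log2 fold change -0.57 ± 0.18 SE, edgeR adjusted p = 0.053). RRP9 averaged 72.1 ± 12.2 CPM with triptolide and 107.1 ± 21.2 CPM untreated (SD, n = 3 libraries each, edgeR adjusted p = 0.0602). With the GC offset IMP4 and RRP9 were both called (adjusted p = 0.00164 and 0.00315), beside 12.1% of all genes lower. MPHOSPH10 and IMP3 had log2 fold changes of -0.6 and -0.4 (edgeR adjusted p = 0.131 and 0.173). Of the exon length of IMP3 in GENCODE 29, 31.2% is shared with SNX33 on the other strand, and whether the counting used strand is not known here.

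The remaining factors of the small-subunit precursor split into 2 called and 5 not called. NOP14 (ENSG00000087269), which binds NOC4L and EMG1 in yeast, had 42.6, 49.5 and 49.3 CPM with triptolide, against 74.7, 73.5 and 67 CPM untreated. It fell 1.52-fold (edgeR adjusted p = 0.0215). Its partner NOC4L had 48.5, 40.9 and 33.9 CPM with triptolide, against 37, 33.9 and 47.4 CPM untreated, with groups that overlapped (log2 fold change 0.06 ± 0.19 SE, edgeR adjusted p = 0.868). EMG1, outside the 48, had a log2 fold change of -0.53 (edgeR adjusted p = 0.0678). DCAF13 (ENSG00000164934), the counterpart of yeast Sof1 and also a substrate receptor of a ubiquitin ligase, had 29.6, 50.5 and 39.3 CPM with triptolide, against 58.5, 63.3 and 72.6 CPM untreated. It fell 1.63-fold (edgeR adjusted p = 0.0353). RRP12, which takes part in export of precursors, had 139.8, 89.4 and 104 CPM with triptolide, against 158.4, 161.9 and 172.2 CPM untreated, and was not called (edgeR adjusted p = 0.0544). It was called lower by DESeq2, limma-voom and with the GC offset (adjusted p = 0.0297, 0.0457 and 0.00326). The scaffold gene UTP20, the RNA acetyltransferase gene NAT10 and BYSL had log2 fold changes of -0.51, -0.23 and -0.22.

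The calls of both genes were lost in several fits with fewer libraries, although the estimates stayed below 0. NOP14 was not called without triptolide replicate 3 or untreated replicates 1 or 2 (adjusted p = 0.0704, 0.0869 and 0.103). The same held under ribosomal protein scaling (0.408), library totals (0.0519) or a mean of at least 5 CPM (0.0571). DCAF13 was called in only 1 of the 6 fits that left out a library, the one without triptolide replicate 2. Its adjusted p was 0.0557 and 0.0996 without triptolide replicates 1 and 3, and 0.0517, 0.0876 and 0.092 without untreated replicates 1, 2 and 3. It was 0.0659 with library totals, 0.318 with ribosomal protein scaling and 0.0814 with a mean of at least 5 CPM. An antisense gene, NOP14-AS1, shares 17.1% of the exon length of NOP14, and without the strand setting their reads cannot be told apart.

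Late factors of the small subunit act on particles that leave the nucleus. LTV1 (ENSG00000135521), which helps export and is removed before the head of the subunit matures, had 11.8, 23.4 and 17.9 CPM with triptolide, against 24, 27.7 and 34.5 CPM untreated (log2 fold change -0.69 ± 0.24 SE, edgeR adjusted p = 0.0694). This was the lowest estimate among the factors that were not called, and its standard error was among the larger ones. The protein-coding gene AL049844.3, not analysed here, shares 27.7% of the exon length of LTV1 on the same strand. TSR1 is a relative of translational GTPases, and NOB1 is the endonuclease that makes the final end of the small-subunit rRNA. They had log2 fold changes of -0.44 and -0.42 (edgeR adjusted p = 0.0821 and 0.139). TSR1 shares 20.7% of its exon length with SRR, and NOB1 20.2% with AC092115.3, both on the other strand. DESeq2 called LTV1, and all 3 late factors were lower at an unadjusted p under 0.05, beside 13.8% of all tested genes. Both TSR1 and NOB1 were called with the GC offset (adjusted p = 0.0144 and 0.0105), beside 12.1% of all genes lower. They were also called without triptolide replicate 1 and untreated replicate 3 (0.0107 and 0.00634), beside 11.8% of all genes lower.

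Of the box H/ACA core proteins, GAR1 (ENSG00000109534) had 13.5, 20.5 and 18.2 CPM with triptolide, against 28, 29.6 and 35.2 CPM untreated. It fell 1.77-fold (log2 fold change -0.83 ± 0.19 SE, edgeR adjusted p = 0.0135), and the groups did not overlap. NHP2 and NOP10, which bind beside it, had log2 fold changes of -0.23 and -0.24, with overlapping groups (edgeR adjusted p = 0.412 and 0.482). DKC1, the pseudouridine synthase of the same particle and outside the 48, averaged 255 ± 18 CPM with triptolide and 392.6 ± 6.88 CPM untreated (SD, n = 3 libraries each) and fell 1.54-fold (edgeR adjusted p = 0.015). DKC1 was not called without triptolide replicate 3 or untreated replicates 1 or 2 (adjusted p = 0.0623, 0.05004 and 0.0787) or with ribosomal protein scaling (0.298). NHP2 shares 27.4% of its exon length with RMND5B on the other strand.

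None of the box C/D core proteins was called by edgeR with TMM scaling and all 6 libraries. Of the 3, NOP58 alone was lower at an unadjusted p under 0.05, beside 13.8% of all tested genes. NOP58 was called lower by DESeq2 (adjusted p = 0.046), with the GC offset (0.0486) and without triptolide replicate 1 and untreated replicate 3 (0.0307), and NOP56 with the GC offset (0.0429). NOP58 (ENSG00000055044) had 73.9, 102.6 and 95.6 CPM with triptolide, against 126.8, 125.8 and 129.4 CPM untreated (log2 fold change -0.49 ± 0.17 SE, edgeR adjusted p = 0.0657). NOP56, its paralog, averaged 354.7 ± 20.4 CPM with triptolide and 453.3 ± 67.9 CPM untreated (SD, n = 3 libraries each, edgeR adjusted p = 0.165). In both genes every triptolide library lay below every untreated library, beside 16.9% of all tested genes. FBL (ENSG00000105202), the methyltransferase of the particle, had 581, 539.9 and 449 CPM with triptolide, against 478.2, 544.5 and 771.7 CPM untreated, so that the groups overlapped and untreated replicate 3 stood highest (edgeR adjusted p = 0.55). SNU13, the RNA-binding protein of the same particle and outside the 48, had a log2 fold change of -0.13 (edgeR adjusted p = 0.663).

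**Figure D5:**
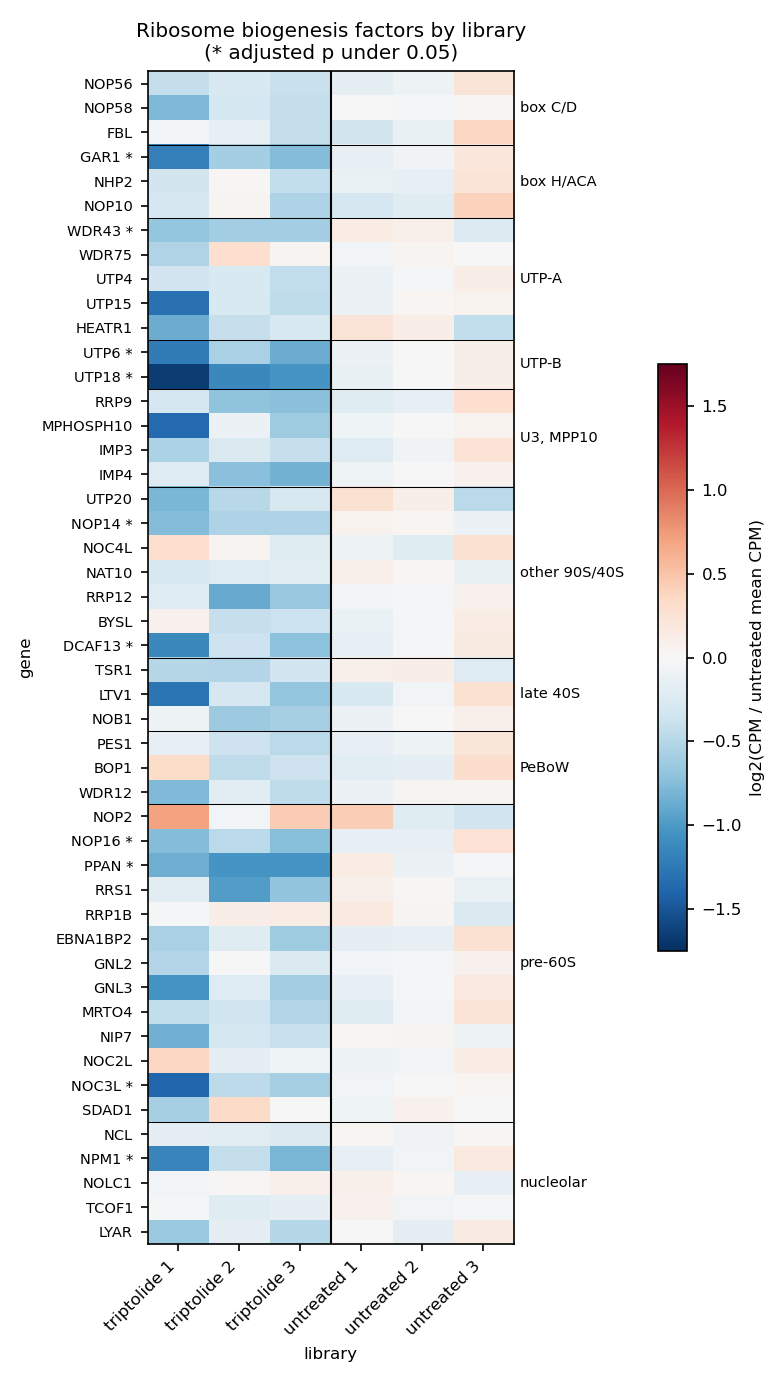
Log2 ratio of each library's CPM to the untreated mean CPM (color) for the 48 factors (rows, grouped by role) in the 3 triptolide libraries (left) and the 3 untreated libraries (right); an asterisk marks an adjusted p under 0.05. UTP18, at 20.2 CPM in triptolide replicate 1 against an untreated mean of 63.7 CPM, has the deepest blue.

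Among 13 factors of the large-subunit precursor, 3 fell. PPAN (ENSG00000130810), the counterpart of yeast Ssf1, had 6.55, 5.82 and 5.79 CPM with triptolide, against 12.9, 11.1 and 11.6 CPM untreated. It fell 1.96-fold (log2 fold change -0.97 ± 0.18 SE, edgeR adjusted p = 0.0043), with groups that did not overlap. The readthrough gene PPAN-P2RY11, not analysed here, shares 56% of the exon length of PPAN. NOP16 (ENSG00000048162) had 39.4, 48.1 and 39.9 CPM with triptolide, against 60.3, 60.2 and 79.7 CPM untreated, and fell 1.57-fold (edgeR adjusted p = 0.0274). NOC3L (ENSG00000173145) had 22.3, 42.3 and 38.7 CPM with triptolide, against 56.3, 58.4 and 59.6 CPM untreated, and fell 1.68-fold (edgeR adjusted p = 0.0367). For NOC3L the untreated libraries lay close together and triptolide replicate 1 was far below its group.

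The estimates of genes tied to NOC3L lay nearer to 0. NOC2L, which binds NOC3L in yeast, had 668.9, 464.2 and 491 CPM with triptolide, against 488.3, 503.3 and 565.5 CPM untreated (log2 fold change 0.06 ± 0.18 SE, edgeR adjusted p = 0.85). CEBPZ, the human counterpart of the third protein of this family and outside the 48, had a log2 fold change of -0.15 (edgeR adjusted p = 0.672). The difference between these genes was not tested. NOC3L was not called without triptolide replicate 3 or untreated replicates 1, 2 or 3 (adjusted p = 0.0563, 0.0663, 0.092 and 0.0789), nor under ribosomal protein scaling (0.338), library totals (0.0801) or a mean of at least 5 CPM (0.0885). NOP16 was not called without triptolide replicate 3 or untreated replicates 2 or 3 (adjusted p = 0.109, 0.0602 and 0.0747), with ribosomal protein scaling (0.308) or a mean of at least 5 CPM (0.0632).

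RRS1 and RPF2 bring the 5S rRNA particle to the large-subunit precursor. RRS1 averaged 39.7 ± 11 CPM with triptolide and 59.7 ± 4.11 CPM untreated (SD, n = 3 libraries each) and was not called (log2 fold change -0.59 ± 0.2 SE, edgeR adjusted p = 0.0665). RPF2, outside the 48, averaged 50.9 ± 13.6 CPM with triptolide and 99.2 ± 6.5 CPM untreated and fell 1.95-fold (edgeR adjusted p = 0.00725, and 0.106 with ribosomal protein scaling). GNL3, the GTP-binding protein nucleostemin, had a log2 fold change of -0.59 (edgeR adjusted p = 0.0697) and its relative GNL2 -0.24. DESeq2 called RRS1 and GNL3 lower (adjusted p = 0.0376 and 0.0412), as did edgeR with the GC offset (0.00636 and 0.0475). EBNA1BP2, MRTO4 and NIP7 had log2 fold changes of -0.46, -0.43 and -0.49. Every triptolide library lay below every untreated one in each, as in 8 of the 13 large-subunit factors, beside 16.9% of all tested genes. All 3 were called lower with the GC offset (adjusted p = 0.0416, 0.0219 and 0.0167), beside 12.1% of all genes. SDAD1 (-0.03) and RRP1B (0.07) lay near 0.

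NOP2, an rRNA methyltransferase gene, had the highest log2 fold change of the 48 (0.38 ± 0.29 SE, edgeR adjusted p = 0.397), at 3.97, 2.36 and 3.31 CPM with triptolide against 3.31, 2.1 and 1.93 CPM untreated. It held the fewest counts of the 48, 332 over the 6 libraries. In GENCODE 29 the protein-coding gene AC006064.6, not analysed here, shares 54.4% of the exon length of NOP2 on the same strand. How reads shared by both genes were counted is not known here, so the level of NOP2 is uncertain.

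PES1, BOP1 and WDR12 form the PeBoW complex, which processes the large-subunit rRNA. None was called by edgeR with TMM scaling and all 6 libraries, by DESeq2 or by limma-voom. WDR12 alone was lower at an unadjusted p under 0.05, beside 13.8% of all tested genes. With the GC offset PES1 was called lower (adjusted p = 0.0279). WDR12 (ENSG00000138442) had 48.7, 73.3 and 61.3 CPM with triptolide, against 77.7, 86.3 and 85.9 CPM untreated (log2 fold change -0.45 ± 0.18 SE, edgeR adjusted p = 0.111). PES1 averaged 203.4 ± 24 CPM with triptolide and 254 ± 36 CPM untreated (SD, n = 3 libraries each, edgeR adjusted p = 0.219). BOP1 had 462.9, 271.9 and 286.2 CPM with triptolide, against 321.4, 329 and 457.2 CPM untreated, so that triptolide replicate 1 and untreated replicate 3 were the high libraries (edgeR adjusted p = 0.764).

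A last set holds nucleolar proteins with broad roles, among them the most abundant factors, NPM1 and NCL. Per exon length, on a TPM scale computed from the counts with GENCODE 29 lengths, the untreated level ran from 1.62 (NOP2) to 2335 (NPM1). NPM1 (ENSG00000181163), the nucleolar histone chaperone nucleophosmin, had 1331, 2217 and 1704 CPM with triptolide, against 2668, 2866 and 3329 CPM untreated. It fell 1.69-fold (log2 fold change -0.76 ± 0.2 SE, edgeR adjusted p = 0.026), and the groups did not overlap. GENCODE 29 names 45 pseudogenes of NPM1, which can share its reads, so its counts are uncertain. NCL (ENSG00000115053), nucleolin, had 2105, 2049 and 1982 CPM with triptolide, against 2424, 2253 and 2403 CPM untreated, with groups that did not overlap and no call (log2 fold change -0.21 ± 0.15 SE, edgeR adjusted p = 0.394). NOLC1, a chaperone of snoRNPs, had a log2 fold change of 0.02 ± 0.15 SE. TCOF1, which links RNA polymerase I to rRNA processing, had -0.13 ± 0.15 SE, and LYAR -0.42 ± 0.18 SE. NPM1 was not called without triptolide replicate 3 or untreated replicates 2 or 3 (adjusted p = 0.0771, 0.0661 and 0.0658), with ribosomal protein scaling (0.143) or a mean of at least 5 CPM (0.0612).

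The summed level of the 48 was 9560, 10400 and 9391 CPM in the triptolide libraries, against 12040, 12200 and 13600 CPM in the untreated libraries. Without NPM1 and NCL it was 6124, 6134 and 5706 CPM with triptolide and 6950, 7077 and 7872 CPM untreated. The groups did not overlap in either sum, which gives no test of its own because the members were chosen with earlier results of these data known.

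A further 124 ribosome assembly genes were listed apart from the 48, and 122 of them were tested. Of these, 22 fell and 0 rose (18%, beside 5.82% of all tested genes lower). At an unadjusted p under 0.05, 58 were lower and 1 higher, beside 13.8% and 17.1% of all tested genes. DESeq2 called 34 lower and 1 higher, beside 7.39% and 9.90%. Their median log2 fold change was -0.36. In 61 of the 122 (50%) every triptolide library lay below every untreated one, beside 16.9% of all tested genes. By role, 9 of 43 other large-subunit factors fell, 8 of 37 other small-subunit factors, 2 of 14 exosome and rRNA trimming genes, 2 of 12 snoRNP cofactors and 1 of 16 nucleolar helicases. The large-subunit factor PAK1IP1 averaged 27.4 ± 4.11 CPM with triptolide and 62.2 ± 4.41 CPM untreated (SD, n = 3 libraries each), a 2.27-fold fall (edgeR adjusted p = 0.000919) that was also called with ribosomal protein scaling (0.0315). RRP15 fell 2.1-fold and PUM3 1.97-fold (edgeR adjusted p = 0.00256 and 0.00707). The pre-40S kinase gene RIOK1 fell 1.73-fold, NOL7 1.59-fold and AATF 1.6-fold (edgeR adjusted p = 0.00671, 0.0142 and 0.0171). The exosome genes EXOSC3 and EXOSC8 fell 1.93-fold and 1.62-fold, the helicase gene DDX21 1.79-fold and ZNHIT6, which assembles box C/D particles, 1.49-fold (edgeR adjusted p = 0.00349, 0.0476, 0.0226 and 0.0336).

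The number of these genes called lower also depended on which libraries were kept. It was 8 without untreated replicate 2, beside 2.56% of all genes lower in that fit, and 11 without untreated replicate 1, beside 3.34%. Without triptolide replicate 3 it was 12, beside 2.96%, and without triptolide replicate 2 it was 36, beside 5.77%. With the GC offset it was 49, beside 12.1%, and with ribosomal protein scaling 1, beside 0.842%. RRP15, PUM3, RIOK1 and EXOSC3 were called in all 6 fits that left out a library, as was PAK1IP1. NOL7 was not called without triptolide replicate 3 (adjusted p = 0.0675), and AATF not without triptolide replicate 3 or untreated replicate 2 (0.0883 and 0.0529). DDX21 was not called without triptolide replicate 1 or untreated replicates 1 or 2 (adjusted p = 0.0696, 0.0656 and 0.0899). ZNHIT6 was called in 2 and EXOSC8 in 1 of the 6 fits.

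Of 15 genes of RNA polymerase I and its initiation factors, which make the rRNA precursor, 3 fell and 0 rose, beside 5.82% of all tested genes lower and 10.0% higher. At an unadjusted p under 0.05, 7 were lower and 0 higher, beside 13.8% and 17.1%. The 3 that fell were TAF1A (5.08 ± 1.46 CPM with triptolide and 9.9 ± 1.23 CPM untreated), TAF1B (5.23 ± 1.31 CPM with triptolide and 11.6 ± 1.32 CPM untreated) and TAF1D (32 ± 12.3 CPM with triptolide and 61.4 ± 6.04 CPM untreated), subunits of the initiation factor SL1 (SD, n = 3 libraries each, edgeR adjusted p = 0.0184, 0.00473 and 0.0278). TAF1A was not called without untreated replicate 2 (adjusted p = 0.0762), TAF1D not without untreated replicates 2 or 3 (0.0585 and 0.076), and none of the 3 with ribosomal protein scaling (0.215, 0.112 and 0.219). TAF1C, a further subunit of SL1, went the other way and was not called (log2 fold change 0.37 ± 0.19 SE, edgeR adjusted p = 0.209). It had 106.2, 72.15 and 76 CPM with triptolide, against 69.03, 55.13 and 72.03 CPM untreated.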

How the data were processed

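RNA was measured by poly(A)-selected sequencing with paired reads, per the labels' protocols, in 6 libraries. The authors deposited whole-number counts per Ensembl gene. HISAT2 and featureCounts made them, per the submitters' processing notes. Genome build, annotation and strand use: not given in the sources used here. The same holds for the handling of multi-mapping reads. Of 35716 IDs, 35639 were matched to symbols.

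Genes were kept by filterByExpr, normalized by TMM, and compared between groups, with no other term, by edgeR's quasi-likelihood F test (version 4.0.16, R 4.3.3). P-values were adjusted after Benjamini and Hochberg across the 15202 genes kept. A gene fell or rose at an adjusted p under 0.05. CPM use the TMM-scaled library size. Standard errors come from the fold change and its F statistic. GC content and exon lengths are from GENCODE 29, and promoter sequences from RefSeq (GRCh38.p14). Log2 CPM used a prior count of 2.

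The members, lists and tests were chosen with earlier results of these data known. Named are all called members, the member with the smallest p of a role with none, NPM1, NCL and FBL, and up to 3 called other assembly genes per role. Other members, complex partners and RNA polymerase I genes were named after their values were seen. Alternatives were other scalings and filters, DESeq2 1.42.0, limma-voom (limma 3.58.1), a replicate block, a GC offset (a spline of GC content per library) and libraries or marker genes left out. Figures used matplotlib 3.10.9.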

Additional observations from a re-analysis of the deposited data

How the results depend on the processing

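The 10 falls of members kept their direction in all 17 alternatives, with the highest log2 fold change at -0.44. Over the 48 members and 17 alternatives (815 values, since NOP2 has none with a mean of at least 5 CPM), 715 kept their side of the threshold, 41 lost a call and 59 gained one, and no called value changed sign. No member was called higher in any alternative.

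The number of members called lower was 10, beside 5.82% of all tested genes. It was 1 with ribosomal protein scaling (beside 0.842%) and 4 where the mean had to reach 5 CPM (3.28%). It was 17 with DESeq2 (7.39%), 18 with no low-count filter (1185 of 35716 genes) and 25 with the GC offset (12.1%). Without triptolide replicate 1 and untreated replicate 3 it was 21 (11.8%). Leaving out 1 library gave 4 to 14, beside 407 to 1034 of all genes. The members' median log2 fold change was -0.27 with ribosomal protein scaling and -0.31 without those 2 libraries, and -0.48 to -0.36 with 1 library left out. Other assembly genes called lower numbered 22, and 12 with library totals, 1 with ribosomal protein scaling, 10 where the mean reached 5 CPM, 34 with DESeq2, 49 with the GC offset, 46 without the 2 libraries and 8 to 36 with 1 left out. The shares of all genes called lower were those given beside the members, and 3.91% with library totals. Called higher were 0, and 1 with no low-count filter, with DESeq2, with the replicate block and without the 2 libraries, and 0 to 1 with 1 left out. Over all genes, 1527 were higher and 884 lower. A mean of at least 5 CPM, which tests fewer genes, gave 584 and 337. The lower count was 128 with ribosomal protein scaling, 1847 with the GC offset and 1841 without the 2 libraries. With 1 library left out, 953 to 1580 were higher and 407 to 1034 lower. Apart from these constructions, the cause of the differences was not tested.

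The deviations gave no sign that the replicate numbers pair the libraries (r of 0.029, -0.041 and -0.439 for numbers 1, 2 and 3). These deviations are centered within groups of 3 and carry the differing trends of the libraries with GC content. They cannot decide whether the cultures were paired, and the labels do not say. With the number as a block, 11 members were lower and 0 higher, and 1523 genes were higher and 856 lower. WDR43, NOP14, DKC1 and ZNHIT6 were then not called (adjusted p = 0.0533, 0.0626, 0.0512 and 0.0914).

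Depth was 332 counts or more per member over the 6 libraries. A p that misses the threshold does not show that a gene did not change.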
